A study of Arundinella anomala and Arundinella fluviatilis and Arundinella hirta with 8 samples.

Results

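NADP-malate dehydrogenase, aspartate aminotransferase and alanine aminotransferase make the malate, aspartate and alanine that move carbon between the cells of a C4 leaf. These 3 genes, out of 26274 genes in the table, were taken with every protein model line listed for them: GRMZM2G129513 for NADP-malate dehydrogenase, GRMZM2G094712 for aspartate aminotransferase and GRMZM2G088064 for alanine aminotransferase. Together they held 5 of the 36698 lines. The files pair no enzyme names with these maize identifiers, so the names rest on general knowledge of maize and were not checked.

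Leaf RNA was sequenced from 8 wild-type C4 grasses, 1 library per species. Those of the genus Arundinella were A. pubescens, A. nepalensis, A. hirta, A. fluviatilis and A. anomala. The species of other genera were Imperata cylindrica, Capillipedium parviflorum and Bothriochloa ischaemum. All plants were labelled mature and were grown at 22 °C with 16 h of light and 8 h of darkness, and RNA came from leaf number 3. No species was repeated, the labels do not say how many plants a library holds, and species of a genus share ancestry. In whole leaves, fewer cells of a type and less RNA per cell cannot be told apart.

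In C4 photosynthesis, PEP carboxylase fixes carbon in the mesophyll into oxaloacetate. NADP-malate dehydrogenase reduces oxaloacetate to malate in the mesophyll chloroplast, and aspartate aminotransferase converts it to aspartate by adding an amino group. Malate and aspartate both travel to the bundle sheath or comparable cells, where CO2 is released for Rubisco. Alanine aminotransferase interconverts pyruvate and alanine, and alanine carries carbon and the amino group back when aspartate is the acid that is sent. Leaves of different C4 grasses use the malate and the aspartate route in different proportions.

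The libraries differed in how much of the maize gene set they listed. The 4 Arundinella libraries other than A. hirta listed 18023 to 20607 genes above 0, A. hirta listed 10697, and the other genera listed 8142 to 10198. Values are FPKM, fragments scaled by sequence length and library size, and are summed over the protein models of a gene. Read counts were not part of the files, so depth is unknown. Some 1338 genes reached 40 FPKM in all of those 4 libraries, a minimum chosen after the values were seen. Of them, 43.8% were listed at 0 in A. hirta, 52.3% in B. ischaemum, 59.2% in C. parviflorum and 39.99% in I. cylindrica. A value of 0 is therefore given as listed at 0, and its part in each result below was not tested. As leaf markers, a Rubisco small subunit gene (GRMZM2G113033) and the triose phosphate translocator (GRMZM2G070605) were above 0 in all 8 libraries. The small subunit gene was weak in I. cylindrica, with 35.75 FPKM, while every other library reached at least 1379.55. The translocator ranged from 857.47 to 3538.25 FPKM. A second small subunit gene (GRMZM2G098520) was listed at 0 in A. anomala and A. hirta. Its level was low for A. pubescens (0.35 FPKM), I. cylindrica (0.97) and A. fluviatilis (5.31). The highest level of that second gene was 1619.35 FPKM, for A. nepalensis.

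NADP-malate dehydrogenase, the malate-forming enzyme, had the highest single value of the 3 enzymes and the widest spread. In FPKM it stood at 2410 in A. fluviatilis, 852 in A. anomala, 258 in A. nepalensis and 49.3 in A. pubescens, whereas A. hirta listed it at 0. Among the other genera it was at 588 FPKM in C. parviflorum and listed at 0 in B. ischaemum and I. cylindrica. Values of the 2 groups overlapped, with C. parviflorum between A. anomala and A. nepalensis. This gene has 1 protein model in the table, also the only one in the deposited identifier list, so no value was divided among its models.

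Aspartate aminotransferase, the aspartate-forming enzyme, lay within a narrow range in 3 of the 5 Arundinella libraries: A. nepalensis had 94.3 FPKM, A. fluviatilis 96.0 and A. pubescens 96.1. A. anomala had 195 FPKM and A. hirta 2.25. All libraries of other genera listed it at 0. The groups did not overlap, but A. hirta stood much closer to the other genera than to its own genus.

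The value of A. anomala came from 2 protein models. GRMZM2G094712_P01 was at 107.87 FPKM there and GRMZM2G094712_P03 at 87.55, or 55.2% and 44.8% of the gene. The first model alone spanned 94.3 to 107.87 FPKM over the same 4 libraries. In A. hirta the whole value lay on GRMZM2G094712_P03, while A. fluviatilis, A. nepalensis and A. pubescens had 0 on that model. A second model above 0 was common: of the genes with several lines and at least 1 of them above 0, 52.8% in A. anomala had 2 or more above 0, and 33.2% in A. hirta. As a background for A. hirta, 1926 genes with several lines had at least 10 FPKM in A. fluviatilis and were above 0 in A. hirta. Of them, 459 (23.8%) were at 0 in A. hirta on the line that led in A. fluviatilis. The identifier list holds 6 models for this gene, of which 2 are in the table.

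Alanine aminotransferase, which forms the returning alanine, was also highest in Arundinella, with 4 of its libraries above every library of another genus. The Arundinella values were, from the lowest, 0.99 FPKM in A. hirta, 84.0 in A. nepalensis, 187 in A. pubescens, 413 in A. anomala and 653 in A. fluviatilis. I. cylindrica had 8.72 FPKM, and the gene was listed at 0 in B. ischaemum and C. parviflorum. The groups overlapped in 1 place, where A. hirta lay below I. cylindrica. Nearly all of the gene's value was on GRMZM2G088064_P03. The other listed model, GRMZM2G088064_P02, was above 0 only in A. nepalensis, at 0.25 FPKM.

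**Figure D1:**
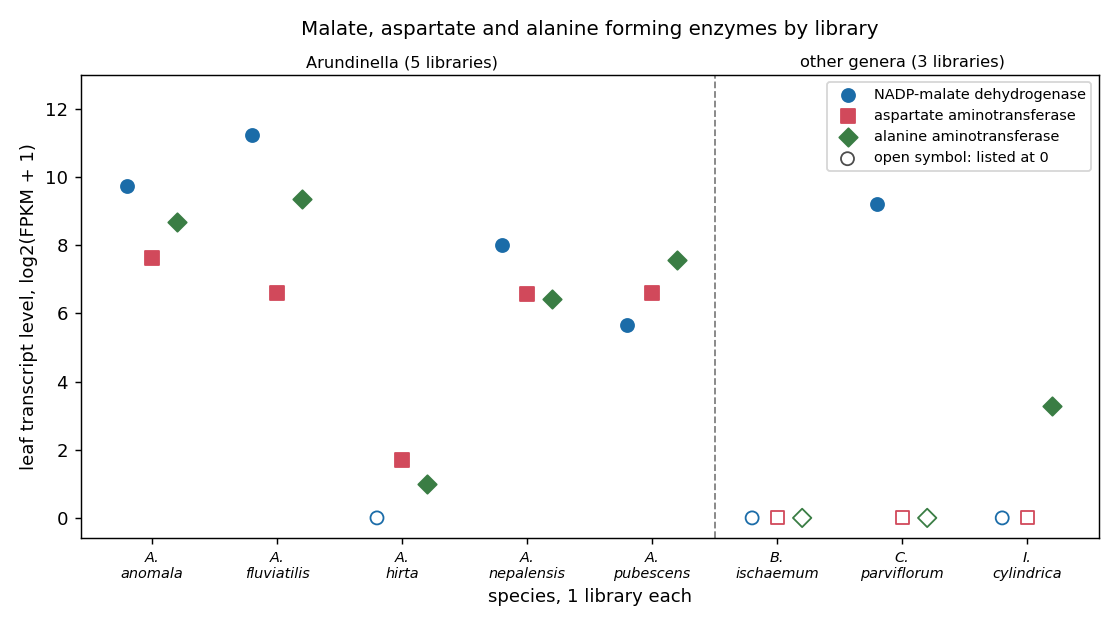
Leaf transcript level, as log2(FPKM + 1), of the 3 enzymes in the 8 libraries, Arundinella left of the dashed line and other genera right; each symbol is 1 library and open symbols are listed at 0. Aspartate aminotransferase sits at 94.3 to 195 FPKM in 4 Arundinella libraries, at 2.25 in A. hirta and at 0 in the other genera, while NADP-malate dehydrogenase is high in C. parviflorum too, at 588 FPKM.

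B. ischaemum was the 1 library with all 3 enzymes listed at 0. C. parviflorum listed only NADP-malate dehydrogenase above 0, and I. cylindrica only alanine aminotransferase. A. hirta listed both aminotransferases, with a sum of 3.24 FPKM, and no NADP-malate dehydrogenase. Zeros of this kind were common among genes well listed in the 4 fuller Arundinella libraries. Of the 1338 such genes, 231 (17.3%) were at 0 in all other genera, like aspartate aminotransferase, and 305 (22.8%) were at 0 in B. ischaemum and C. parviflorum but not in I. cylindrica, like alanine aminotransferase. The pattern of NADP-malate dehydrogenase, above 0 in C. parviflorum and at 0 in A. hirta and the other 2 libraries of other genera, was held by 24 of them (1.79%). That pattern also fixes A. hirta, which the patterns of the aminotransferases leave free, so its share is not comparable with theirs.

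Ranks compare an enzyme with the other genes of its own library. NADP-malate dehydrogenase ranked 20 of 20388 genes listed above 0 in A. fluviatilis, 50 of 8142 in C. parviflorum and 76 of 20468 in A. anomala. It ranked 304 of 18023 in A. nepalensis and 2914 of 20607 in A. pubescens, which is within the top 14.1% there against the top 0.0981% in A. fluviatilis. The enzyme was thus among the most abundant leaf transcripts in A. fluviatilis, A. anomala and C. parviflorum and an ordinary one in A. pubescens. As a percent of the listed genes, which differ in number, C. parviflorum (the top 0.614%) stood behind A. anomala (the top 0.371%).

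Alanine aminotransferase ranked 133 in A. fluviatilis, 198 in A. anomala, 536 in A. pubescens and 1529 in A. nepalensis. In I. cylindrica it ranked 4482 of 10198, near the middle of the listed genes. A. hirta had it lower still, as number 9217 of 10697. Aspartate aminotransferase ranked 557 in A. anomala, 1244 in A. pubescens, 1286 in A. nepalensis and 1404 in A. fluviatilis, between the top 2.72% and the top 7.14%. In A. hirta it ranked 7171 of 10697. Both aminotransferases therefore stood within the top 8.48% in those 4 Arundinella libraries and in the lower part of the list in A. hirta.

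**Figure D2:**
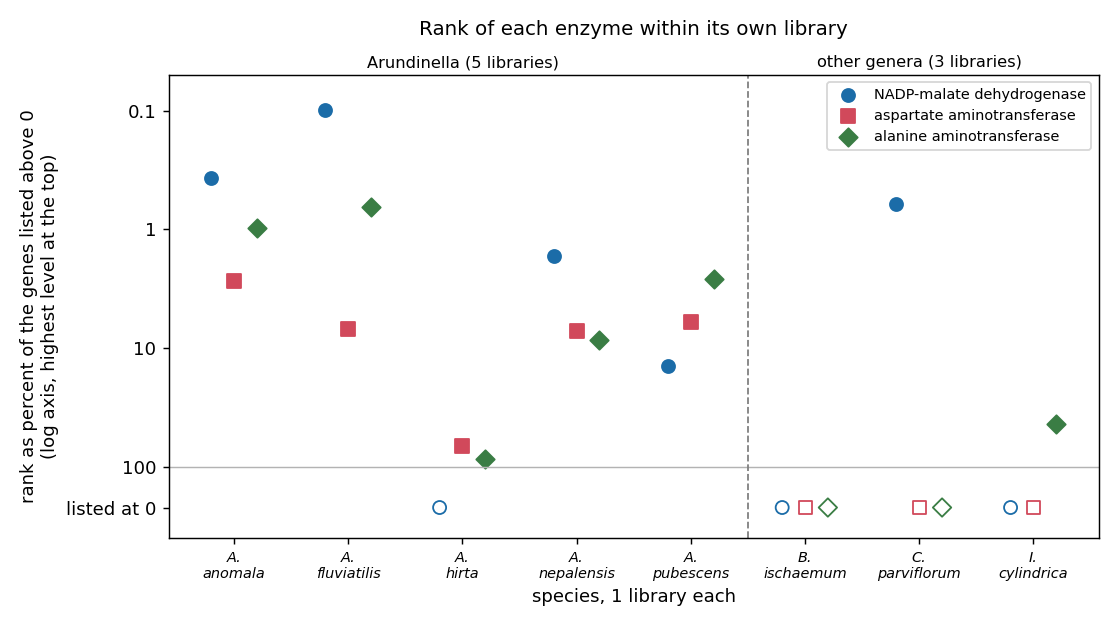
Rank of each enzyme as a percent of the genes listed above 0 in the same library, on a log axis with the highest level at the top; 1 library per species, Arundinella left and other genera right, and open symbols are listed at 0. NADP-malate dehydrogenase lies at the top 0.0981% in A. fluviatilis and the top 14.1% in A. pubescens, and the aminotransferases of A. hirta lie at 67.0% and 86.2%.

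FPKM summed over all listed genes ranged from 701722 to 829005 in the 4 fuller Arundinella libraries and from 212357 to 349576 in A. hirta and the other genera, so the order of levels depends on the scale. Rescaled so that each library sums to 1000000, NADP-malate dehydrogenase was at 2963 in A. fluviatilis, 2771 in C. parviflorum, 1063 in A. anomala, 367 in A. nepalensis and 59.5 in A. pubescens. C. parviflorum thus lay above A. anomala on this scale and below it in FPKM. With 1 library per species, no spread is known for a species, and neighbours in these orders cannot be told apart from sampling.

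A comparison by genus, Arundinella against the rest, asks whether an enzyme differs by genus beyond the spread between species. It was fitted with limma on log2(FPKM + 1) over 18780 genes that reached 1 FPKM in 3 or more libraries, and all 3 enzymes passed that filter. Aspartate aminotransferase passed it through Arundinella alone, so its groups had to differ. With Benjamini-Hochberg adjusted p under 0.05, 1 of the 3 was called, where 1.83% of all genes tested were called and 1.78% were called higher in Arundinella. The called enzyme was aspartate aminotransferase, which was higher in Arundinella by 5.82 ± 1.37 (SE) on the log2 scale (limma adjusted p = 0.0477). That size is set by the pseudocount of 1, because all values of the other genera are 0, and with no filter on low values the call ended (limma adjusted p = 0.0652). Its groups did not overlap, as for 12.7% of genes tested in that direction.

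Alanine aminotransferase had a log2 difference of 5.51 ± 1.77 (SE) and did not pass (limma adjusted p = 0.0954; unadjusted p = 0.0078, where 28.7% of genes had an unadjusted p under 0.05 and a higher fit in Arundinella). NADP-malate dehydrogenase had a log2 difference of 3.86 ± 2.53 (SE) and did not pass either (limma adjusted p = 0.274). That difference was 6.93 without C. parviflorum, 2.33 without B. ischaemum and 2.33 without I. cylindrica, none of them called. The median difference of the 3 enzymes was 5.51, where the median over all genes tested was 1.74 and 91.4% of genes were fitted higher in Arundinella. That share was 55.0% with quantile normalization and 43.6% with the number of genes listed above 0 as a covariate. A difference from 0 on this scale grows with the level of a gene. No background of genes at a like level was computed, so 5.51 against 1.74 does not set the enzymes apart. The genes listed above 0 numbered 10697 to 20607 in Arundinella libraries and 8142 to 10198 in the others, and with the covariate the aspartate aminotransferase difference was 1.31 ± 1.48 (SE; limma adjusted p = 0.802). In that fit, the differences were −1.29 for alanine aminotransferase (limma adjusted p = 0.831) and −2.41 for NADP-malate dehydrogenase (limma adjusted p = 0.858). Each was smaller than its SE, so neither enzyme was shown to be lower in Arundinella. The numbers of listed genes did not overlap between the groups, so this fit cannot separate genus from listing.

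A. hirta was the lowest Arundinella library for each of the 3 enzymes. Without it, aspartate aminotransferase differed by 6.85 ± 0.74 (SE; limma adjusted p = 0.00113). Its groups again had to differ, because it passed the filter through Arundinella alone, so this call is no support. Alanine aminotransferase differed by 6.91 ± 1.20 (SE, limma adjusted p = 0.00346), so 2 of the 3 were called. A. hirta held the lowest Arundinella value of this enzyme, so leaving it out had to raise the difference. The call of alanine aminotransferase is thus no support either. NADP-malate dehydrogenase was not called, at 5.59 ± 2.39 (SE; limma adjusted p = 0.0888). Without A. hirta, 33.3% of all genes tested were called higher in Arundinella. Leaving out any other single library ended the call of aspartate aminotransferase: the adjusted p (limma) was then 0.132 for A. anomala, 0.119 for A. fluviatilis, 0.079 for A. nepalensis and 0.122 for A. pubescens. Of the other genera, leaving out B. ischaemum gave 0.137, C. parviflorum 0.154 and I. cylindrica 0.0774 (limma).

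The malate and the aspartate branch were compared within each library, where depth is shared. Listing is not shared by the genes of a library, so a pair with 1 enzyme at 0 gives no ratio. NADP-malate dehydrogenase exceeded aspartate aminotransferase 25.1-fold in A. fluviatilis, 4.36-fold in A. anomala and 2.73-fold in A. nepalensis. In A. pubescens the balance was the other way, with 0.513 times as much NADP-malate dehydrogenase as aspartate aminotransferase. NADP-malate dehydrogenase made up 96.2%, 81.3%, 73.2% and 33.9% of the sum of both in A. fluviatilis, A. anomala, A. nepalensis and A. pubescens. In C. parviflorum it was at 588 FPKM against an aspartate aminotransferase listed at 0, and in A. hirta aspartate aminotransferase was at 2.25 FPKM against 0. Neither was above 0 in B. ischaemum and I. cylindrica.

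Aspartate aminotransferase varied little among A. fluviatilis, A. nepalensis and A. pubescens, from 94.3 to 96.1 FPKM, while NADP-malate dehydrogenase ran from 49.3 to 2410 FPKM in the same libraries. A. anomala, also with both enzymes above 0, had 195 FPKM of aspartate aminotransferase and 852 of NADP-malate dehydrogenase. The first 3 species were grouped because their aspartate aminotransferase values were close in FPKM. Within that group the balance had to follow NADP-malate dehydrogenase, so this grouping cannot show which enzyme sets the balance. With all libraries rescaled to the same sum, aspartate aminotransferase was less even, at 118 in A. fluviatilis, 134 in A. nepalensis and 116 in A. pubescens. A. anomala stood at 244 on that scale. Over all 8 libraries the mean difference was 1.84 log2 units, higher for NADP-malate dehydrogenase in 4 libraries and lower in 2, and it did not pass (exact sign-flip permutation over libraries, two-sided p = 0.219, adjusted over 3 pairs of enzymes 0.328). With 2 libraries at a difference of 0, the smallest p possible was 0.0312. The differences of C. parviflorum (higher) and A. hirta (lower) each rest on a listing at 0. Without C. parviflorum the mean was 0.79. In the 4 libraries with both enzymes above 0 it was 1.81 ± 2.30 (SD, n = 4; exact permutation p = 0.25, smallest possible 0.125).

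Whether this balance differs by genus could not be assessed, because no library of another genus had both enzymes above 0. In C. parviflorum the log2 difference of 9.20 is set by the pseudocount, and in B. ischaemum and I. cylindrica it is 0 minus 0. All ratios of the malate to the aspartate branch given here are thus ratios within Arundinella.

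**Figure D3:**
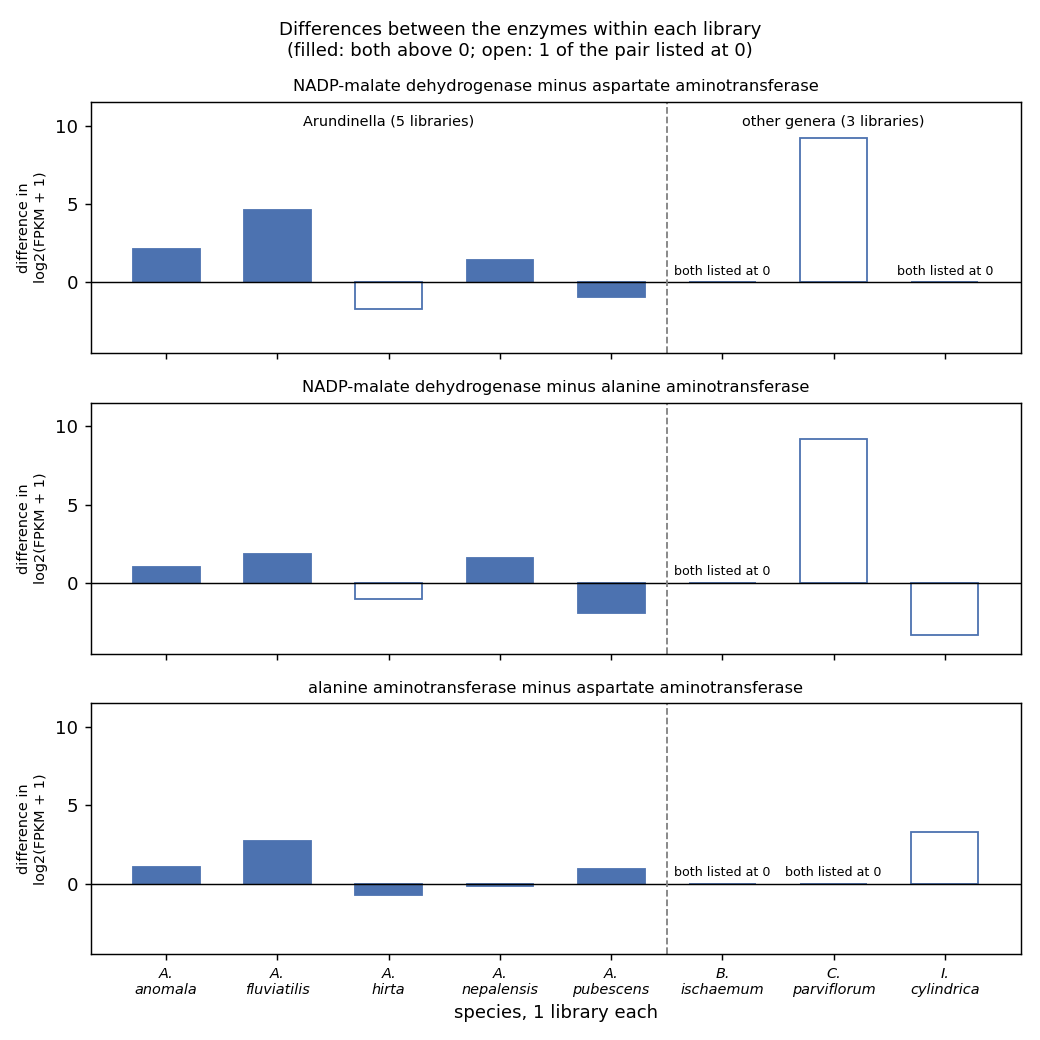
Differences in log2(FPKM + 1) between the enzymes of each pair within each library, Arundinella left of the dashed line and other genera right; filled bars have both enzymes above 0 and open bars have 1 of them listed at 0. NADP-malate dehydrogenase leads aspartate aminotransferase by 4.63 in A. fluviatilis and trails it by 0.95 in A. pubescens (−0.95), and the highest bars, 9.20 in C. parviflorum, rest on a listing at 0.

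The aminotransferases work as a pair in the aspartate route, so their levels were set against each other. Alanine aminotransferase exceeded aspartate aminotransferase 6.80-fold in A. fluviatilis, 2.12-fold in A. anomala and 1.94-fold in A. pubescens. The ratio was 0.891 in A. nepalensis and 0.44 in A. hirta, where both were under 3 FPKM. In I. cylindrica alanine aminotransferase was at 8.72 FPKM and aspartate aminotransferase was listed at 0. The mean difference over 8 libraries was 0.90 log2 units (exact sign-flip permutation over libraries, two-sided p = 0.125, adjusted p = 0.328, smallest possible 0.0312), and without I. cylindrica it was 0.56. In the 5 libraries with both above 0, all Arundinella, it was 0.78 ± 1.33 (SD, n = 5; exact permutation p = 0.25, smallest possible 0.0625).

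NADP-malate dehydrogenase exceeded alanine aminotransferase 3.69-fold in A. fluviatilis, 3.07-fold in A. nepalensis and 2.06-fold in A. anomala. In A. pubescens it was at 0.264 times the level of alanine aminotransferase. Over 8 libraries the mean difference was 0.95 log2 units (exact sign-flip permutation over libraries, two-sided p = 0.625, adjusted p = 0.625, smallest possible 0.0156), and without C. parviflorum it was −0.23. C. parviflorum, A. hirta and I. cylindrica each had 1 of this pair listed at 0. In the 4 libraries with both above 0 the mean was 0.66 ± 1.74 (SD, n = 4; exact permutation p = 0.625, smallest possible 0.125). A. pubescens was the only library with all 3 enzymes above 0 in which NADP-malate dehydrogenase was the lowest of them: alanine aminotransferase made up 56.2% of the 3, aspartate aminotransferase 28.9% and NADP-malate dehydrogenase 14.8%. In A. fluviatilis the shares were 20.7%, 3.04% and 76.3% in the same order of enzymes.

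The acid-forming enzymes were then set beside the steps before and after them, PEP carboxylase (GRMZM2G083841) and the decarboxylases NADP-malic enzyme (GRMZM2G085019), which consumes malate, and PEP carboxykinase (GRMZM2G001696), which acts on oxaloacetate. In A. fluviatilis NADP-malate dehydrogenase was at 0.792 times NADP-malic enzyme and 0.762 times PEP carboxykinase. In A. anomala these ratios were 0.429 and 0.308. In A. pubescens NADP-malic enzyme was 34.4-fold above NADP-malate dehydrogenase and 9.07-fold above alanine aminotransferase, while PEP carboxykinase was at 1.25 FPKM, below all 3 enzymes. The species with the lowest NADP-malate dehydrogenase above 0 thus had NADP-malic enzyme at 1695 FPKM.

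A. nepalensis differed from A. pubescens in NADP-malic enzyme and PEP carboxylase, and both had little PEP carboxykinase. NADP-malate dehydrogenase there was 25.7-fold above PEP carboxylase and 167-fold above NADP-malic enzyme, which was at 1.54 FPKM, and PEP carboxykinase was at 1.42 FPKM. Aspartate aminotransferase was 9.41-fold and alanine aminotransferase 8.38-fold above PEP carboxylase, which was at 10.02 FPKM. Among the 15 genes of a C4 list recalled from maize, the 3 enzymes ranked 2, 4 and 5 in A. nepalensis and between 5 and 9 in A. anomala, A. fluviatilis and A. pubescens.

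In I. cylindrica PEP carboxylase was at 11746 FPKM and NADP-malic enzyme at 4049, while NADP-malate dehydrogenase and aspartate aminotransferase were listed at 0 and alanine aminotransferase was at 8.72. In C. parviflorum NADP-malate dehydrogenase was at 588 FPKM, and PEP carboxylase, NADP-malic enzyme and PEP carboxykinase were all listed at 0. The contrast of I. cylindrica and C. parviflorum rests on listings at 0, with each step read from 1 maize gene. Of the 1338 genes well listed in the 4 fuller Arundinella libraries, 39.99% and 59.2% were at 0 in these libraries. In A. hirta PEP carboxykinase was at 2494 FPKM, with aspartate aminotransferase at 2.25 and alanine aminotransferase at 0.99.

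**Figure D4:**
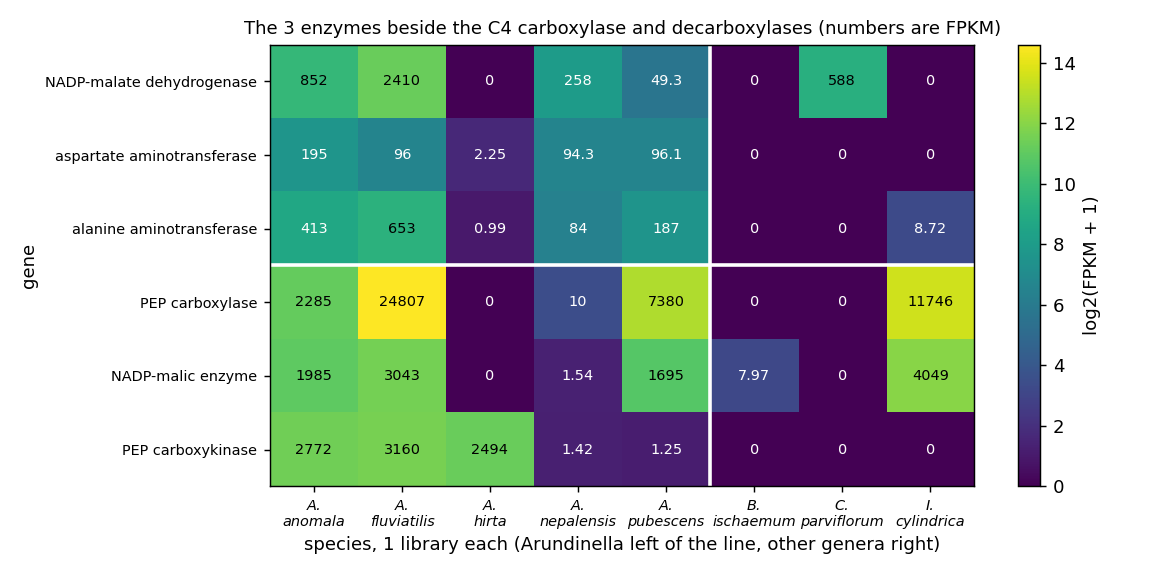
FPKM of the 3 acid-forming enzymes (upper rows) and of PEP carboxylase, NADP-malic enzyme and PEP carboxykinase (lower rows) in each library, with colour on the log2(FPKM + 1) scale; Arundinella columns stand left of the white line. I. cylindrica has 11746 FPKM of PEP carboxylase beside 2 enzymes at 0, and A. nepalensis has 258 FPKM of NADP-malate dehydrogenase beside 10.02 of PEP carboxylase.

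Of the other 12 genes of the C4 list, all were tested by genus and 0 were called by limma, where 1.83% of all genes tested were called. An unadjusted limma p under 0.05 was held by 2, where 28.7% of all genes had one with a higher fit in Arundinella. Without a variance trend, limma called 0 of them and 621 of 18780 genes tested. Those with an unadjusted p under 0.05 were PEP carboxykinase and DiT1 (GRMZM2G383088), which carries malate across the chloroplast envelope. Both were listed at 0 in all other genera and passed the filter through Arundinella alone, so their group means had to differ. Fitted differences were higher in Arundinella for 10 and lower for 2, where 91.4% of all genes were fitted higher. Their median was 2.23 against 1.74 over all genes tested, again without a background of genes at a like level.

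The genes most like each enzyme were found by the root mean square difference of log2(FPKM + 1) over the 8 libraries, after centring each gene on its own mean. Nearest to aspartate aminotransferase was GRMZM2G157156, at a root mean square difference of 0.257 log2 units, followed by GRMZM2G031780 at 0.276, where the median over genes tested was 2.60. GRMZM2G157156 had 145 FPKM in A. anomala, 121 in A. fluviatilis, 110 in A. nepalensis, 75.4 in A. pubescens and 1.57 in A. hirta, and the other genera listed it at 0. Nearest to alanine aminotransferase were GRMZM5G836910 at 0.543 and GRMZM2G059314 at 0.646, with a median of 3.00 over genes tested. Nearest to NADP-malate dehydrogenase were GRMZM2G119471 at 1.28 and GRMZM2G105473 at 1.44, with a median of 4.15. The files give no names for these 6 genes.

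Likeness among the enzymes themselves followed the same measure. The aminotransferases differed from each other by 1.35 log2 units. NADP-malate dehydrogenase differed from aspartate aminotransferase by 3.34 and from alanine aminotransferase by 3.54. Both values lay below the median of 4.15 from NADP-malate dehydrogenase to all genes tested. They lay above the medians from aspartate aminotransferase (2.60) and from alanine aminotransferase (3.00). Profiles in which the same libraries are at 0 lie close by this measure: 918 of 18780 genes (4.89%) were at 0 in exactly the libraries where aspartate aminotransferase was, 1031 (5.49%) for alanine aminotransferase and 331 (1.76%) for NADP-malate dehydrogenase, each enzyme included.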

How the data were processed

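The authors deposited FPKM values for 8 leaf libraries in 1 table on maize protein models, with a list of identifiers. The submitters' processing notes name RSEM; for its version, the aligner and the sequences counted against, nothing is stated. RSEM shares ambiguous fragments out by estimate, and related genes and models can therefore exchange values. Libraries were matched to species by column name, and no libraries held identical values (0 pairs).

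Protein models were summed per gene. The test by genus used limma 3.58.1 (R 4.3.3) on log2(FPKM + 1) of genes reaching 1 FPKM in 3 or more libraries (eBayes with trend, two-sided, Benjamini-Hochberg over all genes tested at 0.05), 5 Arundinella against 3 other libraries. Differences on this scale understate changes of weakly expressed genes. Species was the replicate, so p-values measure only the spread between these libraries. Pairs of enzymes were tested with exact sign-flip permutations over the libraries, and the balance by genus with exact permutations, a test that is void because no other genus had both enzymes above 0. Both steps were tested on simulated normal values that held no listings at 0. Those simulations therefore do not show how the tests behave with the zeros of these libraries. Python 3.11.15, pandas 2.3.3, numpy 2.4.6 and matplotlib 3.10.9 were used.

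The enzymes, the C4 list and the tests were chosen with earlier results of these data known, and gene names were recalled, not read from the files. Named besides the 3 enzymes were members of the C4 list that a result turns on and the 2 genes most like each enzyme. Alternatives were other filters, scalings and pseudocounts, a fit without trend, the highest protein model, the number of genes above 0 as a covariate, percentile ranks, only libraries with both enzymes above 0, and leaving out each library; the Arundinella libraries alone were added after seeing the data. Sequences of the models were not used here.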

Additional observations from a re-analysis of the deposited data

Results flagged for a closer look

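Among the 5 Arundinella libraries, A. hirta stood apart for aspartate aminotransferase, at 1.70 on the log2(FPKM + 1) scale, with a gap to the nearest library of 0.824 of the whole range against a critical value of 0.71 (Dixon). In the difference of NADP-malate dehydrogenase minus alanine aminotransferase over all 8 libraries, C. parviflorum stood apart at 9.20 log2 units, with a gap of 0.586 of the range against 0.526; alanine aminotransferase is listed at 0 there. Of 9 such sets of values looked at, 2 stood apart in this way, and chance gives about 1 in 20.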

How the results depend on the processing

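The aspartate aminotransferase difference kept its direction under all 18 alternatives and its call under 6. The gene passed the filter through Arundinella alone, so the kept direction is no support. It was no longer called with a pseudocount of 10 (2.97), no filter (5.82), quantile normalization (4.90), median-of-ratios scaling (5.28) or the number of genes above 0 as a covariate (1.31), with limma adjusted p from 0.00113 to 0.802 over all alternatives; the cause was not tested. Leaving out 1 library gave 5.37 to 6.85 for aspartate aminotransferase and 4.82 to 6.91 for alanine aminotransferase, which was called without A. hirta only, and 2.33 to 6.93 for NADP-malate dehydrogenase. The call without A. hirta is no support, because that library held the lowest Arundinella value. With a pseudocount of 10 the differences were 3.52 for alanine aminotransferase and 2.36 for NADP-malate dehydrogenase. The covariate turned the fitted sign of alanine aminotransferase (−1.29) and NADP-malate dehydrogenase (−2.41), with each difference smaller than its SE. No alternative called NADP-malate dehydrogenase. Of all genes, 343 were called (335 higher, 8 lower), 799 with a pseudocount of 0.1, 804 with the stricter filter, 621 without trend, 152 with median-of-ratios scaling, 24 with quantile normalization (19 higher, 5 lower), 0 with a pseudocount of 10 (4517 at an unadjusted limma p under 0.05), 0 with the covariate (1279), and 21 to 6105 with 1 library left out (21 without C. parviflorum, 6105 without A. hirta). The median difference over all genes was 1.74, and scaling moved it to 0.16 (quantile) and 1.09 (median-of-ratios). No difference between enzymes passed under any alternative run, but several runs could not pass. The smallest possible exact permutation p was 0.0625 or 0.125 in libraries with both enzymes above 0 and 0.0625 in the Arundinella libraries alone. It was also 0.0625 for NADP-malate dehydrogenase minus aspartate aminotransferase without any 1 Arundinella library or without C. parviflorum. NADP-malate dehydrogenase minus alanine aminotransferase turned with percentile ranks (−3.22 percentage points) and lay between −0.23 and 1.55 with 1 library left out; NADP-malate dehydrogenase minus aspartate aminotransferase then lay between 0.79 and 2.35, and alanine minus aspartate aminotransferase between 0.56 and 1.13, or 0.65 with a pseudocount of 10. The genus difference in the balance of NADP-malate dehydrogenase and aspartate aminotransferase rests on listings at 0 and has no value with both above 0, since no library of another genus is left; as computed it was −1.96, −3.63 with a pseudocount of 0.1, −0.61 with 10, and −3.49 to 1.11 with 1 library left out. No paired analysis was possible because replicate numbers only name the libraries. Depth is unknown.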
